A study of Mus musculus with 46 samples.

Results

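The genes described here were fibroblast genes with the highest share of their fibroblast level at day 12 (D12) of reprogramming with the Nanog fusion. Candidates were the 134 of 37108 genes in the table that had at least 20 FPKM (fragments scaled to gene length and to the library's mapped total) in both mouse embryonic fibroblast (MEF) libraries and under 1 FPKM in mouse embryonic stem cells (mES). Members were the 60 candidates with the highest ratio of the mean log2(FPKM + 1) of the 2 fusion libraries at D12 to that of the 2 MEF libraries. Sept5 and Septin5 were 2 names of 1 gene with identical values, so counts below are over 59 genes, and 74 candidates lay outside the limit. The 59 comprised 8 collagens, 8 matrix glycoproteins and proteoglycans, 6 matrix enzymes and proteases, 9 secreted signals and antagonists, 14 receptors and other cell surface proteins, 3 transcription regulators, 8 intracellular proteins and 3 entries that overlap another gene or have no position.

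The study followed MEF, taken from embryos that carry an Oct4-GFP reporter, after retroviral infection with Oct4 and either native Nanog (NanogWT, labelled Nanog+Oct4) or a fusion (NanogBiD, labelled NanogN70+Oct4). In the fusion, the part of the BAF subunit SS18 that binds BRG1 precedes Nanog. Every infected culture received Oct4, and none received Nanog alone. Libraries were made on 8 days from D0 to D12, with D8 following the change of medium, 2 for each combination and day except NanogBiD D8 with 1. Per the study's methods, D0 followed both rounds of infection, and the cultures were moved from the induction medium to a serum-free medium with 2 kinase inhibitors and LIF at about D7. The infected cells were not sorted, so each library is an average over cells that had and had not advanced. The series also held 12 libraries of induced pluripotent stem cells (iPSC), 6 for each combination, 2 MEF and 1 mES. The mES are labelled OG2, which the study's methods give as the mouse line that carries the Oct4-GFP reporter. The labels do not say that libraries of one group came from separate cultures, so p-values measure the spread between these libraries, which may be technical.

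Fibroblasts build the matrix of connective tissue. They secrete fibrillar collagens, which lysyl oxidase crosslinks, together with glycoproteins such as thrombospondins and fibrillins, and they store growth factors of the TGF-beta family in that matrix. Loss of this mesenchymal programme is among the earliest steps of reprogramming, and the pluripotency network is engaged later.

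The tables hold no read totals, and low values gave only depths relative to one another. The relative depth was 0.810 to 1.10 in the NanogBiD libraries and 0.872 to 1.06 in NanogWT D0 to D7, but 1.85 to 3.18 in NanogWT D8 to D12. NanogWT libraries of D8 and later are thus more precise, and depth and combination cannot be told apart at those days. From 12442 to 14431 genes had at least 1 FPKM per time-course library. All 59 members passed the filter on low values (1 FPKM in 2 or more time-course libraries) also without NanogBiD D12, so all entered the tests, and 58 reached 1 FPKM in all 31 libraries.

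**Figure D1:**
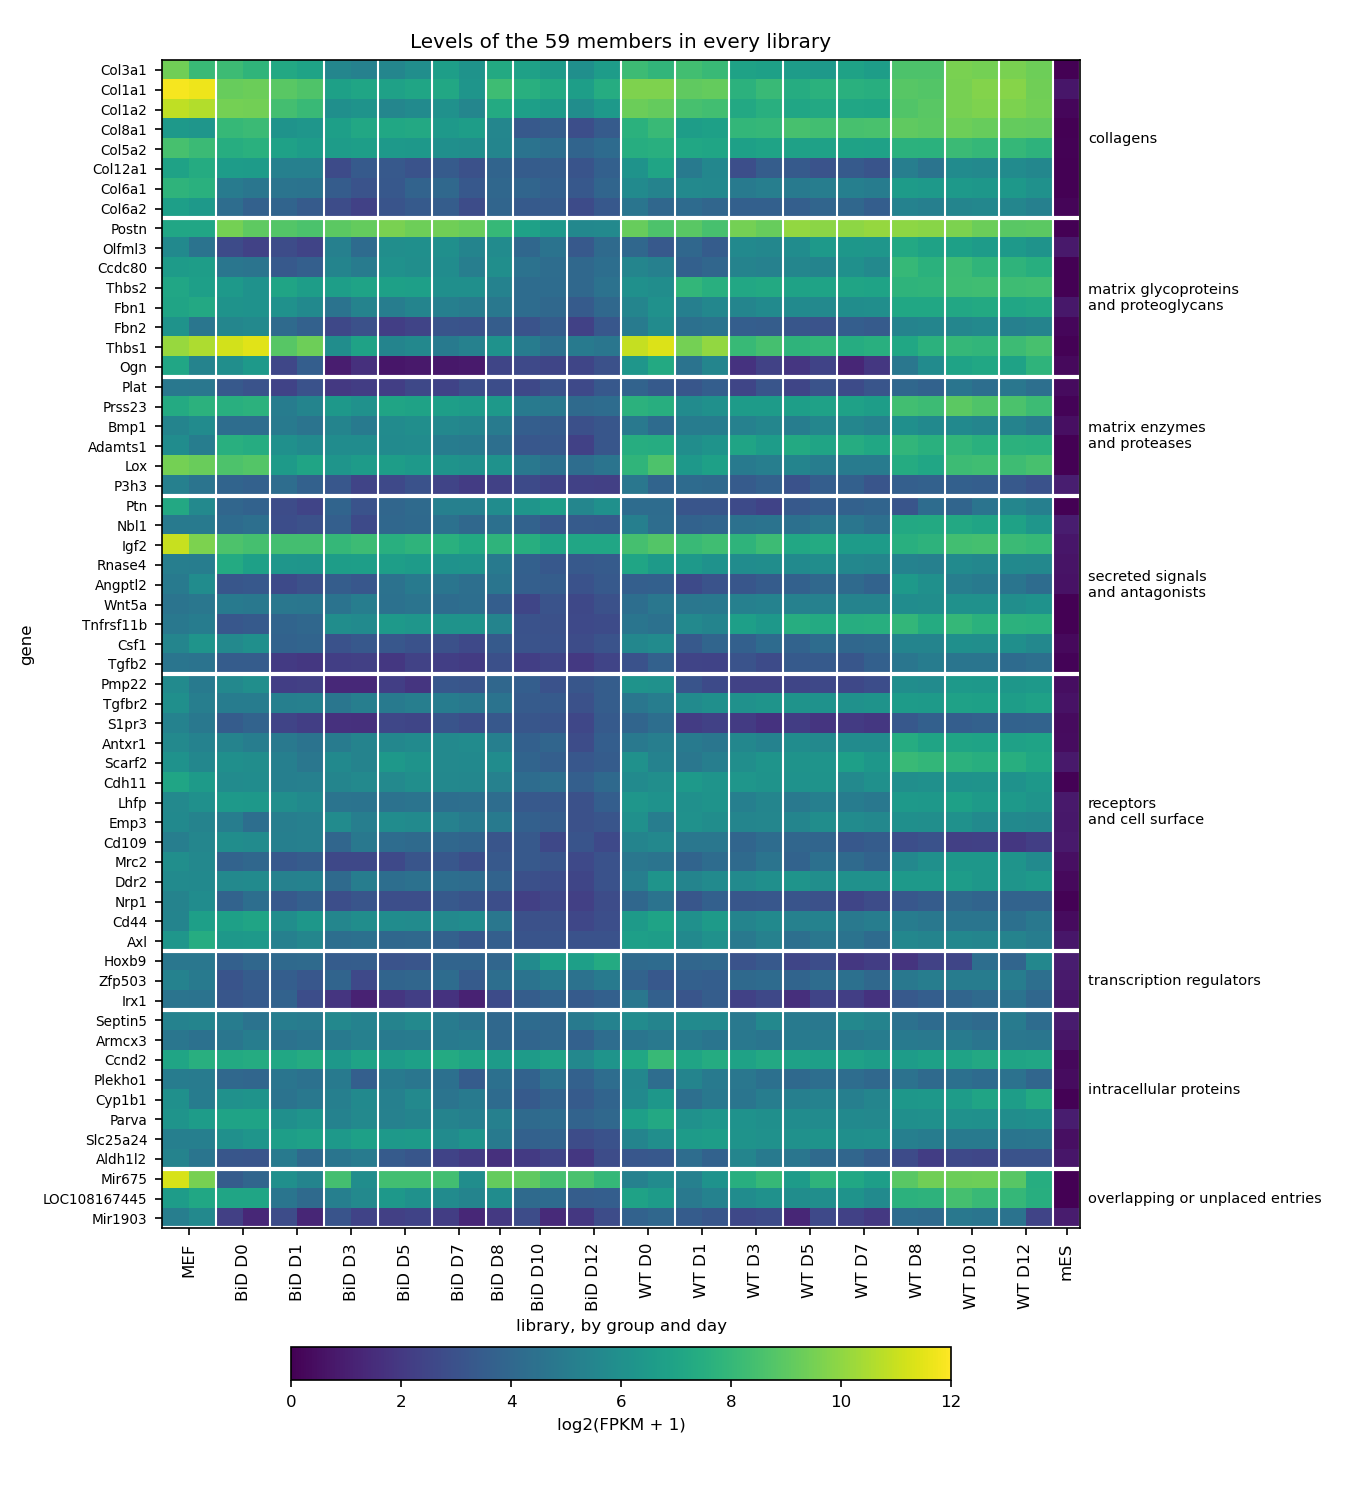
Level of each of the 59 members (vertical axis, by role) in every library of the gene table (horizontal axis, by group and day) as log2(FPKM + 1), from dark (0) to bright (12). Most members were high in MEF, near 0 in mES, lower in the late NanogBiD libraries and high again in the late NanogWT libraries; Hoxb9 was brightest in NanogBiD D10 and D12.

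The members were chosen on NanogBiD D12, MEF and mES, so values in these libraries are a description with no test. Few members were kept near their fibroblast level. In NanogBiD D12, 1 member (Hoxb9) exceeded its MEF mean, 5 stood at 50% of it or more, 13 at 25% or more and 17 under 10%. The median member had 16.1% of its MEF level, and the median of the 74 other candidates was 3.83%. All 59 were nevertheless at 1 FPKM or more in both NanogBiD D12 libraries, with means from 3.81 to 317 FPKM, while mES ranged from 0 to 0.99 FPKM and 11 members were listed at 0 there. In NanogWT D12, which the rule did not use, the median was 81.2% of MEF, 41 members stood at 50% or more, and 55 were above their NanogBiD D12 mean.

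The choice of members depended on its limits. The last members inside were Axl, Mir1903 and Ogn with ratios of 0.443, 0.442 and 0.438. The first candidates outside were Fmod, Ghr and Col11a1 with 0.437, 0.429 and 0.425. Of the 60 members, 54 would be chosen with D10 in place of D12, 40 with NanogWT D12 in place of NanogBiD D12, and 23 with candidates at 10 FPKM in MEF in place of 20. The MEF libraries themselves differed for some members: Igf2 had 2004 and 804 FPKM, Col3a1 676 and 277, Ptn 153 and 49.9 and Ogn 135 and 40.2.

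Hoxb9, a homeobox factor of trunk and posterior identity, ranked first with a ratio of 1.48. It had 26.1 and 26.2 FPKM in MEF, 109 and 159.9 in NanogBiD D12 and 0.969 in mES. Septin5, a filament-forming GTPase, had 38.6 and 42.2 FPKM in MEF and 29.6 and 38.8 in NanogBiD D12. Both genes were thus detected at D12 within or above their fibroblast range, apart from 1 Septin5 library somewhat below it.

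Zfp503, a zinc finger repressor, had 38.8 and 28.7 FPKM in MEF and 21.6 and 30.2 in NanogBiD D12. Ptn, which encodes the heparin-binding growth factor pleiotrophin, had 44.2 and 63.1 FPKM at that day. Armcx3, an outer mitochondrial membrane protein, had 12.2 and 18.3 FPKM, against 25.3 and 20.9 in MEF. Ccnd2, the G1 cyclin D2, had 132 and 188 FPKM in MEF and 47.7 and 72.2 in NanogBiD D12.

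Plekho1, an adaptor with a pleckstrin homology domain, had 31.5 and 31.3 and 12.1 and 18.5 FPKM in the same groups, and Irx1, an Iroquois homeobox factor, 23.4 and 22.9 and 9.9 and 11.9. Postn, the matricellular protein periostin, had 134 and 136 FPKM in MEF and 48.3 and 49.4 in NanogBiD D12. Both late libraries of each of these lay below both MEF libraries. Irx1 is the tenth of the members with the highest ratio once the alias is counted once, and the entry Mir675 is treated with the overlapping entries.

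The next question was when the members fell with NanogBiD, tested on libraries the rule did not use. The rule took genes high in MEF and under 1 FPKM in mES, and D0 cells are infected MEF. More falls from D0 than among all genes, with either combination, can thus follow from the choice alone. The shares over all genes are given for scale. By D7, 28 of the 59 members were lower than at D0 and 6 higher, against 6.15% and 12.7% of the 16842 genes tested. Here and below, called means that the level differed 2-fold or more with an adjusted p under 0.05 (limma, Benjamini-Hochberg over all genes tested). By D10, 38 were lower and 5 higher than at D0 (9.84% and 21.6% of all genes). Between D7 and D10, 25 fell and 4 rose (7.78% and 7.96%). In bulk libraries, fewer cells of a type and less RNA per cell cannot be told apart.

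Set against MEF, the median member had 62.8% at NanogBiD D0, 33.1% at D1, 36.1% at D7, 35.2% in the single D8 library and 19.7% at D10. The median was thus lower at D1, similar from there to D8, and lower again at D10; these medians carry no test. The other candidates went from 57.6% at D0 to 21.4% at D1, 7.81% at D7 and 4.01% at D10. At D7 their difference from D0 was called lower for 54 of 74. The members and the other candidates were divided by their level at NanogBiD D12, and most members would be the same with D10 in its place. The higher shares of the members at D7 and D10, and their fewer calls, can thus follow from that division alone. The same caution holds where the members and the other candidates are set side by side below. Of the 59 members, 35 had their highest NanogBiD mean at D0 and 10 at D5, and 27 had their lowest at D12. These counts include D12, which the rule used, and were not made for other genes, so they are a description.

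**Figure D2:**
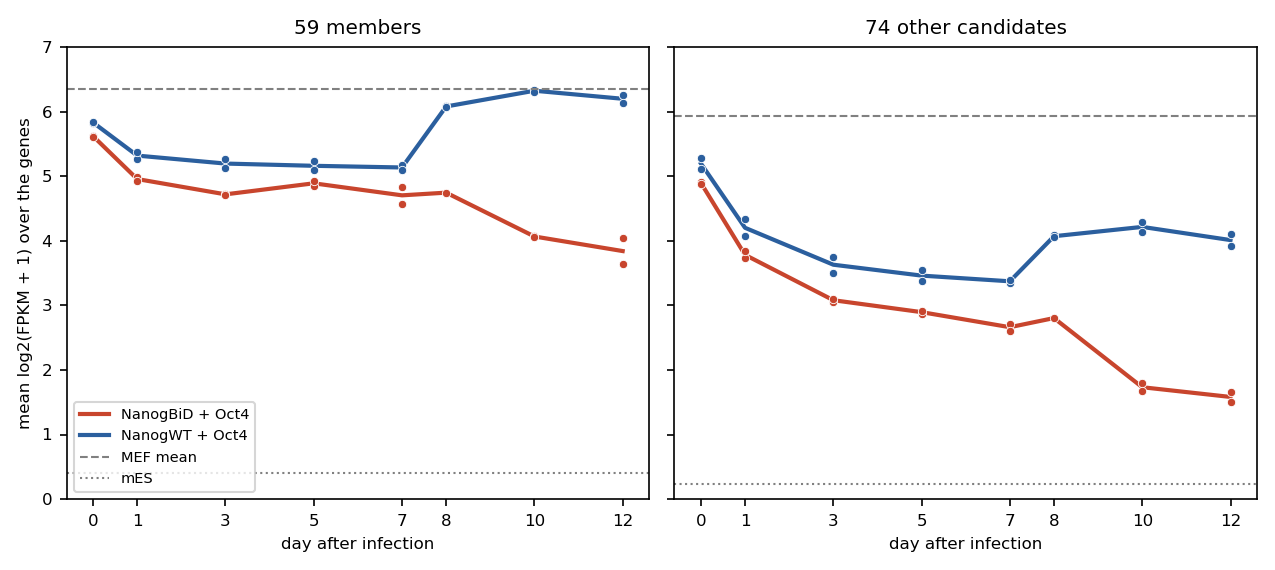
Mean log2(FPKM + 1) over the 59 members (left) and the 74 other candidates (right) by day after infection, with 1 point per library, a line through the day means, and the MEF mean and mES as dashed and dotted lines. With NanogBiD the members' libraries ranged from 3.65 to 4.74 from D8 on, and with NanogWT from 6.08 to 6.34, near the MEF mean.

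Of the collagens, 7 of 8 were lower at NanogBiD D10 than at D0 and none was higher. Col1a1, a chain of type I collagen and the highest member in MEF at 3699.9 and 3344 FPKM, had 587 and 634 at NanogBiD D0, 147 and 74.6 at D7 and 192 and 157 at D10. It fell by 1.81 (SE 0.26, adjusted p = 5.74e-06) log2 units between D0 and D10. Most of that loss was present by D7, where both libraries lay below both D0 libraries, and the D10 libraries were no lower than those of D7.

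Col1a2, the partner chain, followed 717 and 699 FPKM at D0, 65.6 and 44 at D7 and 109 and 92 at D10 and fell by 2.81 (SE 0.20, adjusted p = 7.37e-10). Col3a1, the fibrillar collagen of compliant tissues, went from 301 and 230.5 to 115 and 92.5 FPKM and fell by 1.34 (SE 0.23, adjusted p = 4.34e-05). Col8a1, a short-chain collagen of endothelial and stromal matrix, behaved otherwise: it had 265 and 287 FPKM at D0, 89.7 and 103 at D7, 44.9 at D8 and 9.28 and 10.5 at D10. Its larger step came after D7, when it fell by 3.15 (SE 0.18, adjusted p = 3.48e-10) from D7 to D10. Col5a2, which sets fibril diameter, also fell in both intervals, at -1.62 to D7 and -1.47 from D7 to D10, and Col6a2 at -0.57 did not pass the limit of 2-fold at D10.

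Of the matrix glycoproteins and proteoglycans, 6 of 8 were lower and 1 was higher at NanogBiD D10 than at D0. Thbs1, a thrombospondin that activates latent TGF-beta, had 2352 and 2817 FPKM at D0, 29.4 and 37.8 at D7 and 31.6 and 20.8 at D10. It fell by 6.59 (SE 0.29, adjusted p = 1.91e-12) between D0 and D10, nearly all of it by D7. Ogn, the small leucine-rich proteoglycan osteoglycin, reached its lowest level early, from 60.3 and 85.7 FPKM at D0 to 0.684 and 0.848 at D7, and then rose by 1.77 (SE 0.43, adjusted p = 0.0026) to 5.31 and 4.77 at D10. The level at which Ogn met the rule thus followed a low under 1 FPKM.

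Postn ran at 730.0 and 525 FPKM at D0 and 666 and 598 at D7, above both MEF libraries, and dropped to 265 at D8 and 117 and 82.8 at D10. From D7 to D10 it fell by 2.67 (SE 0.21, adjusted p = 1.63e-08). Olfml3, a secreted olfactomedin domain protein, was the one riser against D0: it had 5.64 and 4.17 FPKM at D0, 62.2 and 41.2 at D7 and 15.3 and 22.5 at D10. Its MEF mean was 36.9 FPKM, above both D10 libraries. It rose by 1.74 (SE 0.33, adjusted p = 1.53e-04) against D0, although it fell by 1.40 after D7. Ccdc80, a matrix protein, had 25.5 and 23.9 FPKM at D0 and 22.2 and 18.6 at D10, groups that lay close together (-0.27 (SE 0.22, adjusted p = 0.298)).

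Of the matrix enzymes and proteases, 4 of 6 were lower and none was higher at NanogBiD D10. Lox, the lysyl oxidase that crosslinks collagen and elastin, had 394 and 441 FPKM at D0, 70.3 and 65 at D7 and 26.7 and 20.7 at D10 and fell by 4.09 (SE 0.23, adjusted p = 4.24e-11). Adamts1, a metalloprotease that cleaves versican, went from 187 and 171 to 8.57 and 8.76 FPKM and fell by 4.22 (SE 0.21, adjusted p = 8.40e-12). Prss23, a secreted serine protease, fell by 2.81 (SE 0.16, adjusted p = 4.81e-11), from 190.0 and 211 to 28.6 and 27 FPKM. All 3 showed no overlap between D0 and D10.

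Bmp1, the procollagen C-proteinase, was higher at D7 than at D0 (1.23) and lower again by D10, with 18.7 and 18.7, then 47.7 and 42.8, then 11 and 10.2 FPKM. Its D10 level did not pass the limit against D0 (-0.76 (SE 0.21, adjusted p = 0.00386)). Plat, the tissue plasminogen activator, had 9.33 and 7.32 FPKM at D0 and 5.04 and 7.21 at D10 (-0.40 (SE 0.29, adjusted p = 0.259)).

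Of the secreted signals and antagonists, 5 of 9 were lower and 1 was higher at NanogBiD D10. Ptn had 14.7 and 12.9 FPKM at D0, 5.96 and 4.59 at D1, 36.7 and 36.2 at D7, 55.3 at D8 and 74.4 and 101 at D10. After a dip at D1 it rose by 2.57 (SE 0.30, adjusted p = 5.54e-07) between D0 and D10, with no overlap, and its D10 libraries lay between those of the MEF pair. Igf2, the imprinted insulin-like growth factor, had 399 and 349 FPKM at D0 and 183 and 129 at D10 and fell by 1.28 (SE 0.18, adjusted p = 5.39e-06). Tnfrsf11b, the decoy receptor osteoprotegerin, rose by 2.83 to D7 and fell by 3.15 from D7 to D10, so that 8.47 and 9.66 FPKM at D0 and 7.1 and 6.99 at D10 enclosed 70.1 and 70.4 at D7. Nbl1, a secreted BMP antagonist, had 17.5 and 19.9 and 12.6 and 8.97 FPKM at D0 and D10 (-0.76 (SE 0.28, adjusted p = 0.0265)).

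Of the receptors and other surface proteins, 12 of 14 were lower and none was higher at NanogBiD D10. Tgfbr2, the type II TGF-beta receptor, had 31.9 and 31.7 FPKM at D0, 31.9 and 27.3 at D7 and 9.98 and 9.43 at D10. It fell by 1.51 (SE 0.17, adjusted p = 1.27e-06) between D7 and D10, and the D7 and D0 libraries differed by less than 2-fold (-0.10). Ddr2, a collagen receptor kinase, had 48.8 and 52.7 FPKM at D0, 18.9 and 17.8 at D7 and 6.72 and 6.17 at D10 and fell by 2.80 (SE 0.28, adjusted p = 6.25e-08). Pmp22, a tetraspan membrane protein, went from 47.4 and 59.9 to 11 and 7.23 FPKM and fell by 2.45 (SE 0.18, adjusted p = 1.08e-09). S1pr3, a sphingosine phosphate receptor, had 10.2 and 13.2 FPKM at D0 and 8.31 and 7.67 at D10 (-0.49 (SE 0.22, adjusted p = 0.0639)).

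The transcription regulators went the other way, with 2 of 3 higher and none lower at NanogBiD D10. Hoxb9 had 11.9 and 15.3 FPKM at D0, 7.52 and 8.01 at D5, 13.4 and 13.8 at D7, 14.6 at D8 and 52.5 and 112 at D10. It rose by 2.42 (SE 0.47, adjusted p = 1.90e-04) against D0, all of it after D8. The 2 libraries of D10 lay well apart, but both were above every earlier NanogBiD library. Zfp503 rose by 1.49 (SE 0.33, adjusted p = 6.79e-04), from 7.61 and 10.1 to 23.1 and 30.1 FPKM. Irx1 dipped from 8.15 and 9.69 FPKM at D0 to 2.39 and 1.22 at D7 and was back at 10.8 and 13.2 at D10, so the change from D7 was a rise of 2.23 (SE 0.37, adjusted p = 7.29e-05) while that from D0 was not called (0.38).

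The genes beside Hoxb9 in its cluster were looked at after the values of Hoxb9 were seen. Hoxb8 had 8.48 and 6.83 FPKM in MEF, 10.1 and 10.6 in NanogBiD D7, 22.3 and 40.2 in D10 and 52.1 and 67.9 in D12, and 42 and 31.4 in NanogWT D12. Hoxb5 had 2.87 and 4.05 FPKM in MEF, 20.6 and 27.4 in NanogBiD D12 and 49.1 and 38.8 in NanogWT D12, and it was listed at 0 in mES. Both stood above MEF in every D12 library of both combinations. Hoxb13, on the other side of Hoxb9, did not: it had 0.15 and 0 FPKM in MEF, 1.04 and 1.05 in NanogBiD D12, 0.163 and 0 in NanogWT D12 and 7.03 in mES. Of the 31 Hox genes tested that were no members, 16 were higher and 3 lower in NanogBiD D10 than in D0 (21.6% and 9.84% of all genes). With NanogWT, 2 were higher and 1 lower at D10 (11.8% and 4.19%), and 12 higher and 3 lower at D12 (12.2% and 3.95%).

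Intracellular proteins had the smallest share called of the role classes, with 3 of 8 lower and none higher at NanogBiD D10. Ccnd2 had 157 and 165 FPKM at D0 and 95.2 and 119 at D10 (-0.59 (SE 0.26, adjusted p = 0.0563)). Armcx3 had 25.5 and 32.6 and 14.3 and 15.7 (-0.90 (SE 0.17, adjusted p = 1.18e-04)), and Septin5 31.5 and 22.4 and 17.3 and 15.5 (-0.67 (SE 0.25, adjusted p = 0.0299)). For Armcx3, Septin5 and Ccnd2 the D10 libraries lay below the D0 libraries without reaching 2-fold. Plekho1 had 15.7 and 14.7 FPKM at D0 and 12.5 and 22.1 at D10, which overlap. The 3 that fell were Cyp1b1, a cytochrome P450 of retinoid and steroid metabolism, Parva, an actin-binding partner of integrin-linked kinase, and Slc25a24, a mitochondrial ATP-Mg/phosphate carrier, with log2 differences of -2.51, -2.75 and -2.37.

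**Figure D3:**
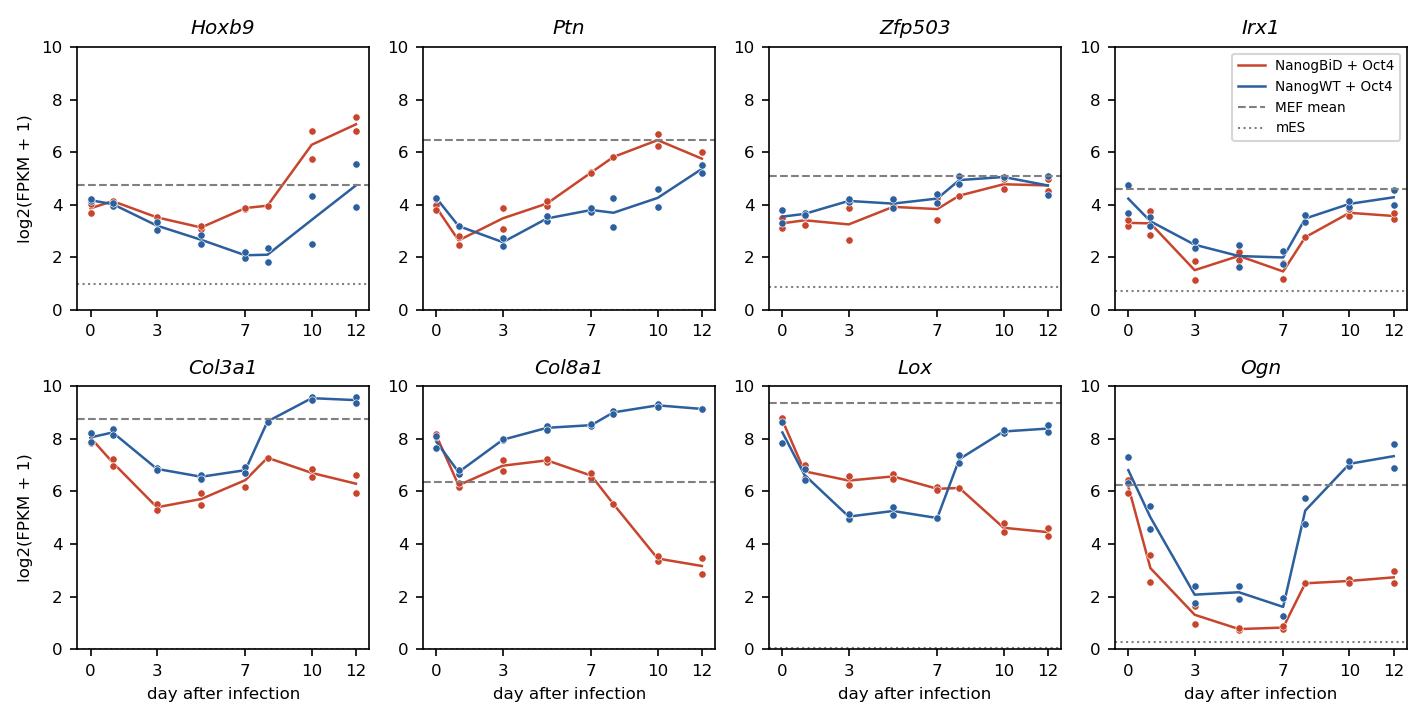
Level as log2(FPKM + 1) of 8 members by day after infection, with 1 point per library, a line through the day means for each combination, and MEF (mean) and mES as dashed and dotted lines. At D10 Hoxb9 and Ptn were higher with NanogBiD, Zfp503 and Irx1 did not differ past the limit, and the collagens Col3a1 and Col8a1, Lox and Ogn were lower with NanogBiD; the Ptn libraries overlapped at D12.

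The upstream sequences of 4 of these members are shown because they stand for opposite courses from NanogBiD D0 to D10. Ptn and Zfp503 rose, and the fibrillar collagen genes Col3a1 and Col1a2 fell. The rise is one against D0: at NanogBiD D12 Ptn had 52.9% and Zfp503 76.7% of the MEF mean. Each is the 250 bases before the annotated start from RefSeq on GRCm38.p6, written 5′ to 3′ on the gene's strand, with CpG dinucleotides in capitals.
Ptn, chr6:36810180-36810429, minus strand: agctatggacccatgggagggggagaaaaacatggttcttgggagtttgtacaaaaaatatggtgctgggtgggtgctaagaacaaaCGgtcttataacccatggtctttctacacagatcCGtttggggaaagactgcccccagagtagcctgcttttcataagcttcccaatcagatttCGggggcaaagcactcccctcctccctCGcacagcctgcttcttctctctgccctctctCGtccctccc
Zfp503, chr14:21989602-21989851, minus strand: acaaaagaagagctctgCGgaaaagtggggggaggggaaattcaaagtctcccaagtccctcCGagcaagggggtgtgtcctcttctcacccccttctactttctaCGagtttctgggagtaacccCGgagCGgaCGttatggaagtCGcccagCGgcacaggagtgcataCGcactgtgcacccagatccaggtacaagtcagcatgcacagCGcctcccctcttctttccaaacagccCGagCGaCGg
Col3a1, chr1:45311288-45311537, plus strand: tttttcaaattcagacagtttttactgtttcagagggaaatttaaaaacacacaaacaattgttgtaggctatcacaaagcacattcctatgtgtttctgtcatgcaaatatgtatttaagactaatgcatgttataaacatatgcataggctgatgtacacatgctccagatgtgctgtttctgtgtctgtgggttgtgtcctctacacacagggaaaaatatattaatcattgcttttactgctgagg
Col1a2, chr6:4505368-4505617, plus strand: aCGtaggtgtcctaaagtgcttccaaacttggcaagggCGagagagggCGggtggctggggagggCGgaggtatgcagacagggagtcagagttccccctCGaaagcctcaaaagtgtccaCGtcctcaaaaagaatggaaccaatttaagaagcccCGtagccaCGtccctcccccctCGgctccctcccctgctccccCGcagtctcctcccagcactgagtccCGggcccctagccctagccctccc
The window of Zfp503 held 13 CpG, that of Col1a2 11, that of Ptn 5 and that of Col3a1 0, so the count of CpG did not separate the pair that rose from the pair that fell. A TATA box (TATAAA, either strand) was present in the window of Col3a1 alone of the 4, and in 6.99% of the 11953 windows of genes tested. A CCAAT box (CCAAT, either strand) was present in those of Ptn and Col1a2, and in 36.8% of the windows of genes tested. Windows were found for 34 of the 59 members, so promoter composition was counted and a difference from other genes was not tested. The median window held 8.5 CpG for the members, 9 for 48 other candidates and 15 for the genes tested. A TATA box was present in 20.6% of the members' windows and 22.9% of those of the other candidates.

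With NanogWT, members were called lower more often than higher at D7, and higher more often than lower from D7 to D10. By D7, 22 members were lower and 5 higher than at D0, against 5.69% and 12.0% of all genes tested. Between D7 and D10, 34 rose and 4 fell (5.69% and 4.59%). Against D0, 21 were then higher and 6 lower at D10 (11.8% and 4.19%), and 18 higher and 7 lower at D12 (12.2% and 3.95%). Of the members, 17 were called lower at D7 and then higher at D10 against D7 with NanogWT, and 2 did so with NanogBiD. Both calls use the same D7 libraries, so a low value there favours both, and this pattern was not counted over all genes. The rise was not particular to the members: of the 74 other candidates, 32 were called higher and 6 lower at NanogWT D10 than at D7.

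The turn was visible at the first library after the change of medium. The median member had 42.2% of MEF at NanogWT D7, 84.9% at D8, 95.3% at D10 and 81.2% at D12. The other candidates stood at 13.5% at D7, 26.6% at D8 and 30.8% at D10, and 9 of 74 were called higher and 34 lower at D10 than at D0. The NanogWT libraries from D8 on are also the deeper ones, and the medium, the day and the depth cannot be told apart here.

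Ogn showed the widest return, from 1.42 and 2.83 FPKM at NanogWT D7 to 26.4 and 53.5 at D8 and 123 and 141 at D10, a rise of 5.45 (SE 0.43, adjusted p = 2.04e-08). Pmp22 went from 4.99 and 6.09 to 90.2 and 82.3 FPKM, Lox from 30.8 and 30.7 to 301 and 319.6 and Col3a1 from 119.9 and 103 to 778 and 721, with rises of 3.74, 3.29 and 2.74. None of these 4 overlapped between D7 and D10. Thbs1 did not return: it had 1978 and 2643 FPKM at D0, 171 and 191 at D7 and 253 and 236 at D10 (0.43 (SE 0.29, adjusted p = 0.311) from D7). Cd109, a GPI-anchored TGF-beta co-receptor, went on falling with NanogWT, at -2.12 to D7 and -1.08 from D7 to D10, and at D12 stood at 8.34% of MEF, below its 16.3% with NanogBiD.

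Several members ended above MEF with NanogWT, a description with no test since MEF was used by the rule. Col8a1 had 85.7 and 77.3 FPKM in MEF and 564 and 562 in NanogWT D12, and Tnfrsf11b 27 and 32 and 205 and 194. Adamts1 had 55.2 and 32.6 and 206 and 195 FPKM, and Postn 134 and 136 and 492 and 504. In each of the 4 the libraries of the groups did not overlap. Against NanogWT D0, the D12 level was called higher for Col8a1 (1.26) and Tnfrsf11b (3.09). It was not called for Adamts1 (0.19) or Postn (0.02). Of the 59 members, 26 exceeded their MEF mean at NanogWT D12.

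The fusion and native Nanog were then compared at each day. At D0, 0 members were higher and 1 lower with NanogBiD (all genes, 0.422% and 0.338%). At D1 the counts were 0 and 5 (0.368% and 0.962%), at D3 1 and 9 (1.25% and 2.45%), at D5 1 and 11 (3.20% and 3.28%) and at D7 3 and 13 (5.79% and 4.65%). At D10, 2 were higher and 47 lower, against 15.4% and 12.3% of all genes and 0 and 70 of the 74 other candidates. The change from D0 to D10 itself differed between the combinations for 47 members, 2 in favour of NanogBiD and 45 of NanogWT (14.7% and 12.5% of all genes). For the change from D0 to D7 these counts were 3 and 14 (5.20% and 4.88%), and when either replicate was left out 8 members were called, 0 in favour of NanogBiD.

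At D0 the exception was Tnfrsf11b, with 8.47 and 9.66 FPKM with NanogBiD and 24.1 and 21 with NanogWT (-1.23 (SE 0.17, adjusted p = 4.07e-04)), a call lost without the first replicates and with these groups fitted alone. At D1, Ogn had 4.93 and 11.1 and 22.7 and 43.1 FPKM (-1.93 (SE 0.43, adjusted p = 0.0147)), and Col3a1 149 and 124 and 328 and 279 (-1.14 (SE 0.23, adjusted p = 0.00639)). The libraries of the 2 combinations were apart for each. Leaving out either replicate, or fitting these groups alone, removed most of the calls at D1, as given in the closing section.

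At D7 the members higher with NanogBiD were Hoxb9, Ptn and Lox. Hoxb9 had 13.4 and 13.8 FPKM with NanogBiD and 2.87 and 3.57 with NanogWT (1.80 (SE 0.47, adjusted p = 0.00679)), Ptn 36.7 and 36.2 and 12.1 and 13.8 (1.43 (SE 0.30, adjusted p = 0.0013)), and Lox 70.3 and 65 and 30.8 and 30.7 (1.11 (SE 0.23, adjusted p = 0.00115)). None of the 3 overlapped, but with the first replicates left out the adjusted p was 0.12 for Hoxb9 and 0.0549 for Ptn in limma, and with the second left out 0.0841 for Hoxb9. The 5 furthest below NanogWT at D7 were Thbs1, Adamts1, Col8a1, Ddr2 and Aldh1l2, with log2 differences of -2.40, -2.30, -1.92, -1.80 and -1.50. Aldh1l2, the mitochondrial formyltetrahydrofolate dehydrogenase, had 4.38 and 3.29 and 14.8 and 10.7 FPKM there and 3.07 and 4.44 and 5.31 and 4.89 at D10, where it was no longer called (-0.37 (SE 0.30, adjusted p = 0.311)).

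At D10 every collagen (8 of 8), matrix glycoprotein or proteoglycan (8 of 8) and matrix enzyme or protease (6 of 6) among the members was lower with NanogBiD, although P3h3 of the enzymes was not called without the second replicates (-0.98, adjusted p = 0.0753 in limma). So were 8 of 9 secreted signals, 12 of 14 receptors and surface proteins, 3 of 8 intracellular proteins and 2 of 3 overlapping or unplaced entries, and 0 of 3 transcription regulators. Of the secreted signals, Igf2 was under 2-fold without the second replicates (-0.85). The median log2 difference was -2.72 for the collagens, -3.15 for the glycoproteins and proteoglycans, -0.61 for the intracellular proteins and -2.40 over all members, against 0.10 over all genes tested.

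Col8a1 differed most, with 9.28 and 10.5 FPKM with NanogBiD and 643 and 596 with NanogWT (-5.83 (SE 0.18, adjusted p = 3.50e-14)). Tnfrsf11b had 7.1 and 6.99 and 257 and 200.3 (-4.82 (SE 0.17, adjusted p = 1.09e-13)), Adamts1 8.57 and 8.76 and 241 and 195 (-4.49 (SE 0.21, adjusted p = 6.40e-12)), and Ogn 5.31 and 4.77 and 123 and 141 (-4.46 (SE 0.43, adjusted p = 5.51e-08)). In all 4, both NanogWT libraries were far above both NanogBiD libraries. The type I collagen chains had 192 and 157 against 751 and 861 FPKM for Col1a1 (-2.21 (SE 0.26, adjusted p = 5.90e-07)) and 109 and 92 against 739.5 and 809 for Col1a2 (-2.93 (SE 0.20, adjusted p = 7.01e-10)). Lox, higher with NanogBiD at D7, had crossed over to 26.7 and 20.7 against 301 and 319.6 FPKM (-3.66 (SE 0.23, adjusted p = 2.85e-10)).

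**Figure D4:**
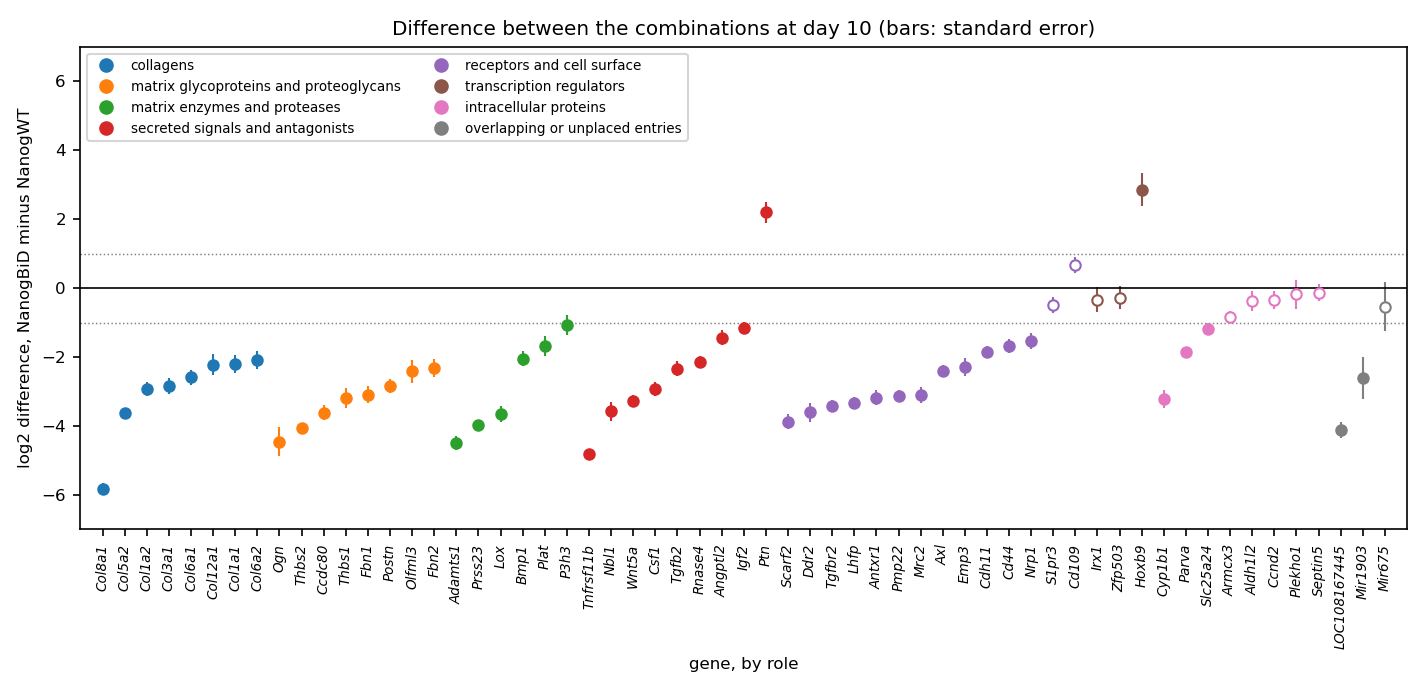
Log2 difference between NanogBiD and NanogWT at D10 for each of the 59 members, grouped and coloured by role, with bars for the standard error from limma, filled points for members called and dotted lines at 1 and -1. Of the points, 47 filled ones lie below 0 and 2 above, Ptn and Hoxb9.

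Hoxb9 and Ptn were the 2 members higher with NanogBiD at D10. Hoxb9 had 52.5 and 112 FPKM with NanogBiD and 4.69 and 19.2 with NanogWT (2.86 (SE 0.47, adjusted p = 3.59e-05)), and Ptn 74.4 and 101 and 14 and 23.3 (2.20 (SE 0.30, adjusted p = 4.50e-06)). At D12 Hoxb9 stood at 14.2 and 45.7 FPKM and Ptn at 44.9 and 35.8 with NanogWT. Both Hoxb9 libraries were below both of NanogBiD D12, whereas those of Ptn overlapped them.

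The 10 members not called at D10 included Zfp503 with 23.1 and 30.1 and 32.4 and 31.9 FPKM (-0.28 (SE 0.33, adjusted p = 0.504)) and Irx1 with 10.8 and 13.2 and 14 and 16.8 (-0.34 (SE 0.37, adjusted p = 0.455)). Zfp503 rose in both combinations between D0 and D10, by 1.49 and 1.51 log2 units, the latter lost without the second replicates (adjusted p = 0.0513 in limma), and the difference between those changes was -0.02 (SE 0.47, adjusted p = 0.978). The rest were the intracellular proteins Ccnd2, Plekho1, Septin5, Armcx3 and Aldh1l2, the surface proteins S1pr3 and Cd109 and the entry Mir675, with differences from -0.84 to 0.66. A difference that misses the threshold does not show that the levels were alike.

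Some entries could not be assigned to a gene of their own. Mir675 lies inside H19, an imprinted noncoding RNA, so reads of the host cannot be told apart from its own, and messenger RNA libraries do not measure mature miRNA. It was listed with 2511 and 733 FPKM in MEF, 10.3 and 13.9 in NanogBiD D0 and 542 and 352 in D10. H19 itself went from 54.8 and 65.2 to 829 and 564 FPKM over the same days, against 5081 and 1419 in MEF, so both entries moved the same way.

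Mir1903 lies inside Nrp1, a receptor for semaphorins and VEGF that is itself a member, and had 5.9 and 1.69 FPKM in NanogBiD D10 and 26.7 and 24.1 in NanogWT D10. Its difference of -2.61 (SE 0.60, adjusted p = 0.00108) was lost without the second replicates (adjusted p = 0.0655). LOC108167445 has no position in the annotation used here and had 16.5 and 17.6 and 352 and 278 FPKM at D10 (-4.12 (SE 0.22, adjusted p = 4.20e-11)). In the transcript table it stood at 1.72 and 3.17 FPKM in MEF, where the gene table gave 98 and 141, so its level is uncertain.

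Other genes of the same pathways were counted without the members. Of all genes tested, 9.84% were lower and 21.6% higher in NanogBiD D10 than in D0. For NanogBiD D10 against D0, 18 of 21 further crosslinkers, proteases and inhibitors were lower and none higher, with Adamts5 at -4.57 and the member Adamts1 at -4.22. Of 19 further matrix glycoproteins, 13 were lower and 1 higher, with Fbln5 at -4.74 and Efemp1 at -4.35, and of 12 further proteoglycans 7 were lower and none higher, with Bgn at -4.69. Of 16 further genes of the TGF-beta axis, 10 were lower and 2 higher, with Fst at -5.51 and Grem1 at -3.73. Of 24 actin and contractile genes, none of which is a member, 21 were lower and none higher, with Actg2 at -6.81, Acta2 at -6.32 and Tagln at -5.63.

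With NanogWT at D10 against D0, the proteoglycans had 6 higher and 2 lower of 12, the matrix glycoproteins 3 higher and 4 lower of 19, the TGF-beta axis 4 higher and 7 lower of 16, and the actin and contractile genes 0 higher and 18 lower of 24. Over all genes tested, 11.8% were higher and 4.19% lower with NanogWT, so the share of matrix glycoproteins that were higher lay near that of all genes. Most contractile genes were lower at D10 than at D0 in both combinations. Of 5 further collagens, 3 were higher and none lower with NanogWT, and 1 was higher and 3 lower with NanogBiD. Of 20 further surface receptors of fibroblasts, 4 were higher and 4 lower with NanogWT, and 3 higher and 13 lower with NanogBiD.

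Markers of cell types moved with these results, and their part in them was not tested. The 12 fibroblast markers, of which Col1a1, Col1a2 and Col3a1 are members, summed to 9225 to 9299 FPKM in MEF, 1409 to 1496 in NanogBiD D10, 1049 to 1470 in NanogBiD D12 and 5803 to 6188 in NanogWT D10. In NanogBiD D10, 12 of the 12 were at 1 FPKM or more, and in D12 11 were, with Twist2 at a mean of 0.97 FPKM. Vim, the mesenchymal intermediate filament gene, still had a mean of 785 FPKM in NanogBiD D12 against 54.7 in mES. Of the 9 fibroblast markers that are no members, 7 were lower and none higher in NanogBiD D10 than in D0, with Prrx1 at -4.23, Thy1 at -3.82 and Twist2 at -3.53. Over all genes tested, 9.84% were lower and 21.6% higher.

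Most pluripotency markers rose in the same libraries. For the counts that follow, the shares of all genes higher and lower than at D0 were 21.6% and 9.84% in NanogBiD D10 and 11.8% and 4.19% in NanogWT D10. Of 10 markers, 8 were higher and 2 lower in NanogBiD D10 than in D0, with Dppa5a at 8.98, Sox2 at 7.29 and Tdgf1 at 5.93, and all 10 were at 1 FPKM or more. The 2 that were lower were Pou5f1 (Oct4) and Nanog, which the viruses delivered, so their levels mix both sources. With NanogWT, 8 of the 10 were higher and 0 lower at D10. Of the epithelial markers tested, 6 of 6 were higher in NanogBiD D10 than in D0. Of the neural and glial markers tested, 5 of 7 were higher and 0 lower, with Tubb3 at 5.38. With NanogWT, 2 of the 7 were higher and 0 lower at D10. In mES, Tubb3 had 18.2, Foxd3 14.1 and Nes 13.1 FPKM, so these do not mark neural cells alone. The other listed neural and glial markers were under 1 FPKM in mES. Macrophage markers summed to 4.08 to 8.79 FPKM in NanogBiD D10 and smooth muscle markers to 15.7 to 21.6, against 889 to 1400 for the latter in MEF. Of 10 macrophage markers, 4 were lower and 0 higher at D10 than at D0 with NanogBiD, and 1 was lower and 0 higher with NanogWT. Lyz2 had means of 3.15 FPKM in MEF, 59.9 in NanogBiD D0 and 81.1 in NanogWT D0. At D10 it had 1.05 with NanogBiD and 19.7 with NanogWT.

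The last question was whether the members are expressed in iPSC, which the rule did not use. In the transcript table summed per gene symbol, all 59 were listed. The 12 iPSC libraries were spread widely: between 2 and 54 members reached 1 FPKM per library, and the summed level ran from 17.1 to 3070 FPKM, against 12528 to 14558 in MEF and 19.4 in mES. No member reached 1 FPKM in all 12, and 5 did in none: S1pr3, Ptn, LOC108167445, Mir675 and Mir1903. In this table Mir675 had 0.0166 and 0.0104 FPKM in MEF, against 2511 and 733 in the gene table, and Mir1903 was also near 0 in MEF, so nothing can be read from their absence in iPSC.

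The labels mark each iPSC library iPSC1 or iPSC2 and do not say what these tags stand for. The tag is called line here, in both combinations, and need not name a cell line. One library stood apart, that of NanogBiD line iPSC1 labelled 9. There 54 members had their highest iPSC level, 54 reached 1 FPKM and 23 reached 20 FPKM, and the median member had 21.4% of MEF. Over the other 11 libraries, the mean level was 1.98% of MEF at the median. Fibroblast markers summed to 2249 FPKM in that library and to 237 to 881 in the others, and pluripotency markers to 2393 and 3302 to 5833. The next was NanogWT line iPSC1 labelled 3, with 51 members at 1 FPKM or more, a median of 7.89% of MEF and fibroblast markers of 881 FPKM. The part of these markers in the members' levels was not tested.

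Col1a1 was highest over the 12 libraries. With NanogBiD it had 24.3, 74.5 and 931 FPKM in line iPSC1 and 0.915, 0.537 and 0.407 in line iPSC2. With NanogWT it had 95.7, 2.18, 0.738 and 285 in line iPSC1 and 10.4 and 0.573 in line iPSC2. The groups overlapped, and the spread within each exceeded any difference between them.

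Thbs1 ranged from 0.959 to 418 FPKM over the NanogBiD libraries, Lox from 0.16 to 305, Col1a2 from 0.224 to 303 and Col5a2 from 0.134 to 136. Without the library labelled 9, the highest of the other 11 was 129 FPKM for Thbs1, 106 for Lox, 101 for Col1a2 and 45.6 for Col5a2, all in NanogWT line iPSC1 labelled 3. The same 2 libraries thus led for each of the 5 highest members. Hoxb9 had 0.788 to 8.82 FPKM over the 12, against 20 and 20.8 in MEF in that table, and Ptn 0 to 0.546 against 307 and 105. Hoxb9 reached 1 FPKM in 11 of the 12 and Ptn in 0.

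The 7 libraries of line iPSC1 had 7 to 54 members at 1 FPKM or more and the 5 of line iPSC2 had 2 to 32, which overlap. The column names give passages 5 and 6 for iPSC1 and 2 for iPSC2, and the effects of line and of passage cannot be told apart.

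For NanogBiD iPSC against NanogWT iPSC, with line as a covariate, 0 of the 51 members tested were called by limma, and 0 had an unadjusted p under 0.05. Over all 12456 genes tested 0 were called, and 201 had an unadjusted p under 0.05. The median log2 difference of the members was 0.31, with 48 of 51 positive. The NanogWT iPSC1 libraries labelled 1 and 1-2 share a number and may not be independent; with their mean used as 1 sample, 0 members were called and the median was 0.25. Without the library labelled 9 it was -0.22, with 8 of 51 positive, so 1 library set the sign.

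**Figure D5:**
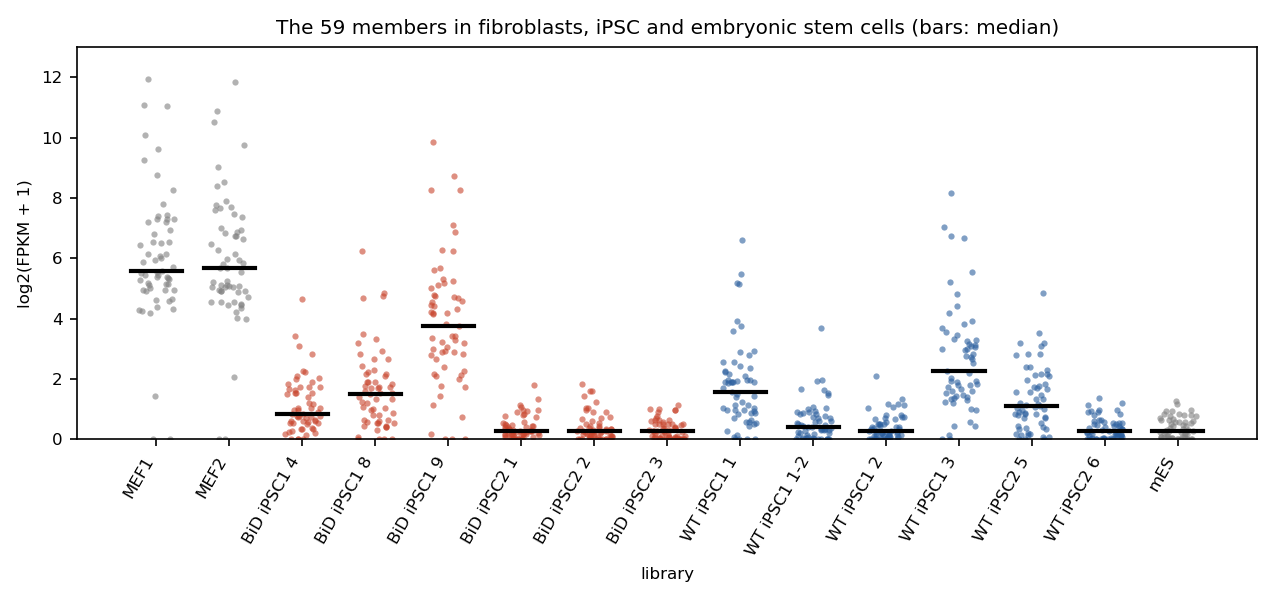
Level as log2(FPKM + 1) of the 59 members (1 point each, bar at the median) in MEF, the 12 iPSC libraries and mES, from the transcript table. NanogBiD iPSC1 9 lies above the other iPSC, NanogWT iPSC1 3 follows, and the lowest iPSC libraries lie close to mES.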

How the data were processed

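RNA-seq was measured in 31 time-course, 12 iPSC, 2 MEF and 1 mES libraries. The authors deposited FPKM values. Per the study's methods and the submitters' processing notes, reads were trimmed with Trim Galore 0.6.4, aligned to mm10 with HISAT2 2.2.1 and quantified with StringTie 2.2.1, with replicates kept apart. The annotation and the use of strand are not given in the sources used here, so overlapping genes are uncertain. Sequencing depth is unknown beyond ratios read from low values. Groups came from the sample labels.

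The gene table of 37108 rows held the time course, MEF and mES. The transcript table was summed per symbol for the iPSC. Values were analysed as log2(FPKM + 1), so fold changes of low genes are understated. A limma 3.58.1 model (R 4.3.3, intensity trend) with a mean per group was fitted to the 16842 genes that reached 1 FPKM in 2 or more time-course libraries, and to 12456 genes for the iPSC with line as covariate. A gene was called at a two-sided Benjamini-Hochberg adjusted p under 0.05 and at least 2-fold. The test was checked on simulated data. The members, role classes and gene lists were chosen with earlier results of these data known. The members named are the 10 with the highest ratio, the 5 most different in each direction between combinations at D7 and D10, the 5 highest in iPSC, the 4 highest in MEF and up to 3 per role. Other genes are given as at most 3 examples a list. Alternatives were another pseudocount, no filter, rescaling, quantile normalization, no fold limit, a replicate block, separate fits and leaving out replicates. Promoter sequences came from RefSeq on GRCm38.p6.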

Additional observations from a re-analysis of the deposited data

Results flagged for a closer look

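Each iPSC group of 6 libraries was checked on 7 overlapping measures for a library that stands far from the rest, and 1 of these 14 checks was past Dixon's critical value for 6 samples: the mean log2(FPKM + 1) over the members in NanogBiD line iPSC1 labelled 9. Its gap to the next library was 0.629 of the range of its group, at 3.85 against 1.64 for the next and 0.331 for the lowest. Chance flags about 1 in 20 independent sets, and these checks are not independent: they share libraries, and the NanogWT libraries labelled 1 and 1-2 share a number. For Col1a1, Thbs1, Lox, Col1a2 and Col5a2 the same library was the highest of the NanogBiD group without passing that value.

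The change from D0 differed between the combinations, by limma's test of the difference of changes, for 17 members at D7 and for 47 at D10. Over all 16842 genes tested, 1698 were called at D7 and 4584 at D10. At D7, 8 members were called with either replicate left out. The 3 largest differences in favour of NanogWT at D10 were those of Col8a1 at -6.06, Adamts1 at -4.52 and Thbs2, a thrombospondin, at -4.43 log2 units. Those in favour of NanogBiD were Hoxb9 at 3.17 and Ptn at 2.56.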

How the results depend on the processing

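At D10 the fusion against native Nanog called 48 to 51 members under every alternative run. Fitted on the compared groups alone, 0 members were called at D0, D1 and D3. With no fold limit, 8 members were called at D1, 23 at D3, 21 at D5, 30 at D7, and 38 for NanogWT D12 against D0. The shares of all genes called under that setting are not given here, so these counts describe the setting and not the members. With a replicate left out, 0 to 1 were called at D0, 1 to 2 at D1, and 8 in both cases for the difference of changes at D7. The cause was not tested, except that separate fits use fewer samples. For members called in 5 comparisons (NanogBiD against NanogWT at D7 and D10, the difference of changes at D10, and each combination at D10 against D0), 0 of 1638 values under an alternative changed sign and 37 were no longer called, 23 of them without a replicate; members of the other 10 comparisons were not followed singly. With candidates at 10 FPKM, 23 of the 60 members were shared. The median over all genes between NanogBiD D10 and D0 was 0.31, and 0.01 after quantile normalization, under which 5 members were higher and 42 lower. Same-numbered deviations of replicates correlated at -0.06 to 0.42 over 13 comparisons. The highest were 0.42 for NanogWT D12 against D0 and 0.39 for NanogBiD against NanogWT at D7. Some sharing by replicate number thus remains possible, and the main fits did not model it. With the replicate block, 49 members were called at D10, and no count moved by 1.5 times. iPSC depth is unknown, so low iPSC levels carry no limit of detection.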
